A study of Homo sapiens with 4 samples.

Results

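The interferon regulatory factor (IRF) genes were examined in a Flag ChIP-seq experiment on the ETS transcription factor FLI1. The 8 genes *IRF1*, *IRF2*, *IRF3*, *IRF4*, *IRF5*, *IRF7*, *IRF8* and *IRF9* were taken by symbol from the 20046 protein-coding genes of GENCODE 44. For each gene, every peak within 3 kb of an annotated transcription start site (TSS), in the gene body or within 50 kb of the gene was used. The cells were HK1, an established nasopharyngeal carcinoma line, and both groups overexpressed Flag-tagged FLI1. The control group was treated with PBS and the other group with IFN-γ, each for 24 h. Each group had 1 ChIP library, so variation between replicates could not be estimated and the treatment itself could not be tested. The antibody recognised the Flag tag, and what was measured is therefore the overexpressed protein and not native FLI1. The series also has 2 input samples, which were not analysed here, and the peak lists hold no expression values by which the cell type could be checked.

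IRFs are transcription factors that share a DNA-binding domain for GAAA-containing interferon-stimulated response elements (ISREs). IFN-γ signals through the receptor kinases JAK1 and JAK2 and induces *IRF1* among other genes, many of which carry gamma-activated sites (GAS). ETS proteins such as FLI1 bind a GGAA core, and some IRFs bind together with an ETS protein at composite elements in which GGAA and GAAA lie side by side.

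The deposited lists held 30819 control peaks and 39654 IFN-γ peaks, with median summit pileups of 16 and 22 fragments. The fold enrichment of a peak is its summit pileup plus 1 over the local background plus 1, as the authors' peak caller gave it, and the whole-number pileup was recovered from it and the p-value. The relative depth of the libraries, taken from their lowest backgrounds, was 1.46, and pileups were scaled by it for comparisons. Intervals are exact at 95% and cover counting error only. A site missing from a list was under its calling limit, which leaves unknown whether FLI1 was there.

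All 8 genes had at least 1 peak by this rule in each library, against 85.8% of coding genes for the control list and 88.8% for the IFN-γ list. A promoter peak, meaning here a peak no more than 3 kb from any start of the gene, was present at 5 of the 8 genes in the control library (*IRF1*, *IRF2*, *IRF3*, *IRF7* and *IRF8*), where 61.9% of coding genes had one. In the IFN-γ library 7 of the 8 genes had a promoter peak, against 59.7% of coding genes. *IRF5* and *IRF9* had one in the IFN-γ list and none in the control list, which held for 3.7% of coding genes. The reverse, found at 5.9% of coding genes, held for 0 of the 8, and *IRF4* had a promoter peak in neither list. Counting the TSS of the MANE Select transcript, the reference transcript of a gene, and no other, the numbers were 4 and 6, against 57.9% and 54.5% of coding genes. *IRF8* dropped out, and *IRF5* and *IRF9* were again called with IFN-γ alone, as were 3.03% of coding genes. Since 2 genes are few, this is a description of the lists and no test was made.

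The 8 genes held 36 control peaks and 47 IFN-γ peaks, a median of 4.5 and 6 per gene against 3 per coding gene in both lists. Since the lists differ in length, the IFN-γ list was also cut to the 30819 peaks lowest in p-value, and then held 36 IRF peaks, as many as the control list. *IRF1* went from 7 to 12 peaks and *IRF8* from 1 to 7, and each of them had 6 peaks in the IFN-γ list alone. At least 6 such peaks were found at 1.26% of coding genes, a limit chosen after the values were seen. In the shortened list *IRF1* had 9 peaks and *IRF8* 5, of which 3 and 4 had no control counterpart. *IRF2* had 4 and 5 peaks, *IRF3* 7 and 7, *IRF4* 2 and 4, *IRF5* 2 and 1, *IRF7* 5 and 4, and *IRF9* 8 and 7. Of the control peaks 7 had no IFN-γ counterpart, against 22.5% of all control peaks, and of the IFN-γ peaks 19 had no control counterpart, against 39% of all IFN-γ peaks. As shares with a counterpart, these were 80.6% (64.0% to 91.8%) of the control peaks and 59.6% (44.3% to 73.6%) of the IFN-γ peaks, and both intervals hold the value over all peaks, 77.5% and 61.0%.

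**Figure D1:**
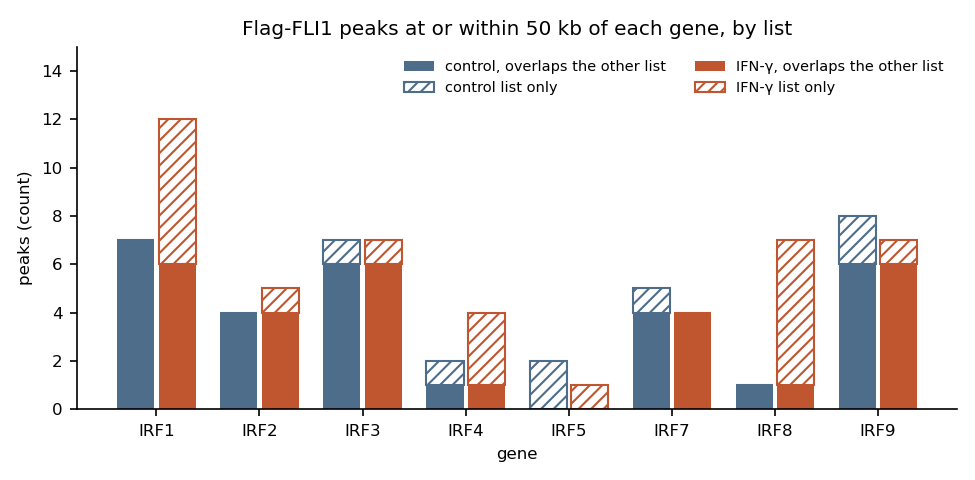
Number of Flag-FLI1 peaks (vertical axis, count) by gene (horizontal axis), with the control list in blue and the IFN-γ list in orange. Filled parts overlap a peak of the other list and hatched parts are found in that list alone, with 6 such IFN-γ peaks at both *IRF1* and *IRF8*.

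Of the 36 control peaks, 18 lay at the promoter of another coding gene, as did 16 of the 47 IFN-γ peaks, and 1 and 2 of these were also at the IRF gene's own promoter. Over the whole lists, 56.9% and 47.0% of peaks were at a promoter of any annotated gene. For the IRF peaks the nearest TSS belonged to the IRF gene itself for 8 and 18 peaks. *IRF9* lies among 17 other coding genes with a TSS within 50 kb, *IRF3* among 7, *IRF7* among 5 and *IRF1* among 4, while *IRF2*, *IRF4* and *IRF8* have 0. The strongest promoter peak of each gene was enriched between 10.4 and 14.4 times with PBS (5 genes) and between 4.48 and 10.6 times with IFN-γ (7 genes). By summit pileup the control order was *IRF1* and *IRF8* with 34 fragments each, *IRF7* with 32, *IRF2* with 31 and *IRF3* with 22. The highest over the lowest gave a ratio of 1.55 (0.878 to 2.77), so no place in that order was set apart by more than counting error. In the IFN-γ library the order was *IRF8* with 57 fragments, *IRF1* with 47, *IRF2* with 30, *IRF7* with 29, *IRF9* with 27, *IRF3* with 26 and *IRF5* with 13. No gene differed from its next neighbour in this order beyond counting error, although *IRF8* exceeded *IRF3* by a ratio of 2.19 (1.36 to 3.63) and *IRF5* by 4.38 (2.37 to 8.73). The *IRF8* peak lies 17.5 kb downstream of the MANE Select TSS, and the *IRF1* peak 7.11 kb upstream of it. Their backgrounds, 5.66 and 4.64, were above the 1.93 at *IRF2*. By fold enrichment the order was *IRF2* (10.6), *IRF9* (8.96), *IRF8* (8.70), *IRF1* (8.51), *IRF7* (8.44), *IRF3* (6.45) and *IRF5* (4.48).

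**Figure D2:**
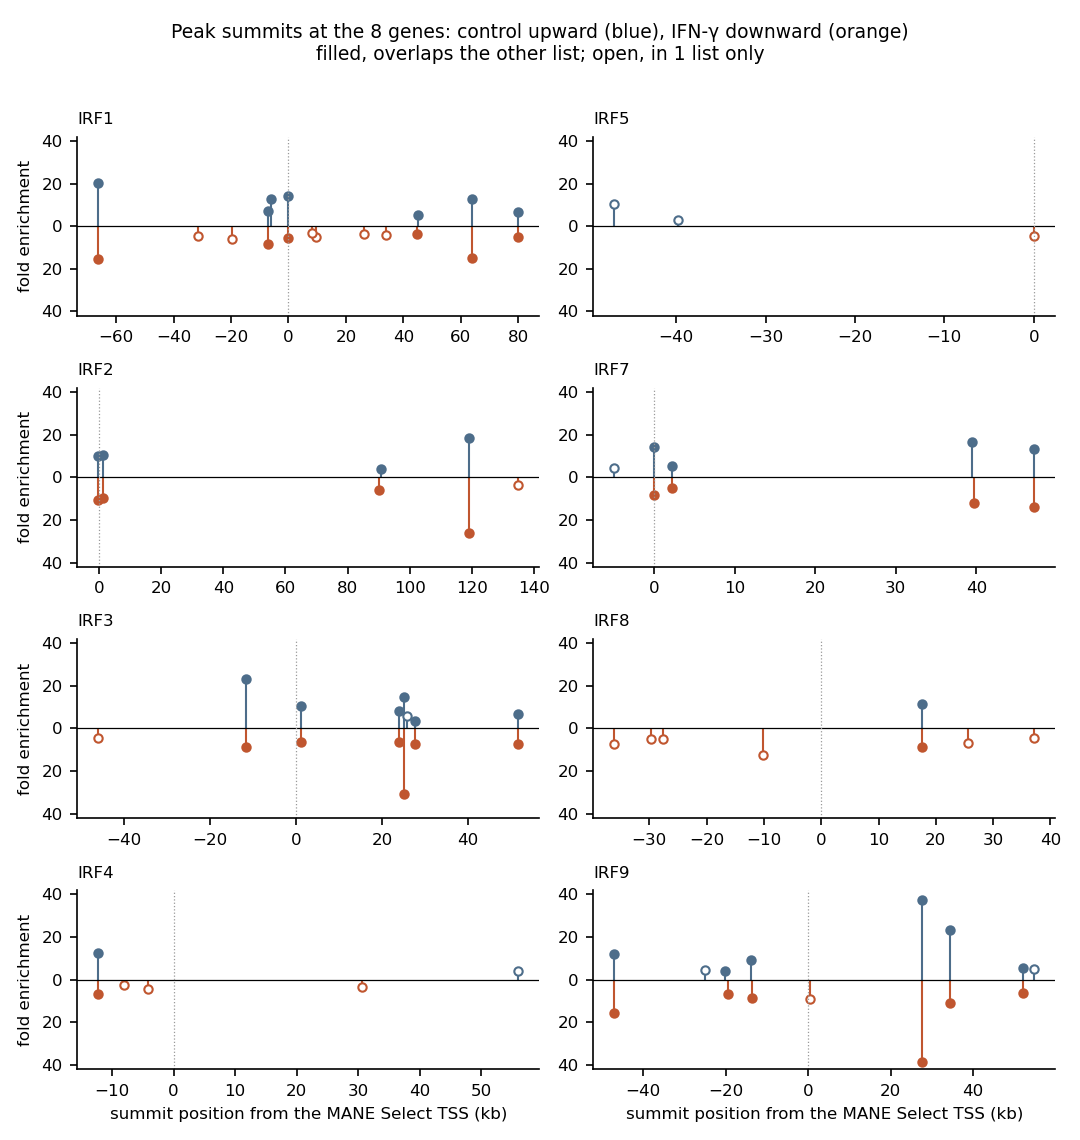
Fold enrichment (vertical axes, control upward in blue and IFN-γ downward in orange) against the position of each summit from the MANE Select TSS of the gene in kb (horizontal axes, positive downstream). Filled points overlap a peak of the other list and open points do not, and the highest points, of 37.2 and 38.6, are at the *IPO4* promoter near *IRF9*.

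*IRF1* (ENSG00000125347, chr5:132440440-132508719, minus strand, GRCh38) encodes the activator that binds ISREs and is itself induced by IFN-γ in many cell types. Its promoter peak spanned the MANE Select TSS at 132490773 in both libraries, with the summit upstream of it. The control peak had its summit 201 bp upstream, with 34 fragments over a background of 1.43, a fold enrichment of 14.4 and a rank in the top 14.5% of the list. The IFN-γ peak, with its summit 210 bp upstream, had 21 fragments over a background of 3.06, a fold enrichment of 5.41 and a rank in the top 59.1%. The summit was thus lower in the IFN-γ library, by a depth-scaled ratio of 0.424 (0.234 to 0.752), and 2.04% of all shared promoter pairs had a ratio as low. A second start region of *IRF1* lies farther upstream. There the control library had peaks 6.24 kb and 7.11 kb upstream of the MANE Select TSS, with 34 and 25 fragments and fold enrichments of 12.6 and 7.07, and the IFN-γ library had a single wider peak over both, with 47 fragments and a fold enrichment of 8.51. Paired with the 7.11 kb peak, whose summit is the nearer, it had a ratio of 1.29 (0.779 to 2.19), and set against the stronger control summit at 6.24 kb the ratio was 0.949 (0.598 to 1.52). These ratios were 3.04 times (1.38 to 6.74) and 2.24 times (1.05 to 4.80) that at the MANE Select promoter, comparisons chosen after the values were seen and independent of the depth scale.

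The windows of 100 bp either side of the control summits at these starts are given to compare their cores and motif matches. Capitals mark each GGAA core, or TTCC where the core is on the other strand, here and in the sequences that follow. All are read in the direction of the IRF gene and, where needed, shortened to leave out annotated UTRs.
IRF1 promoter, chr5:132490874-132491074, minus strand: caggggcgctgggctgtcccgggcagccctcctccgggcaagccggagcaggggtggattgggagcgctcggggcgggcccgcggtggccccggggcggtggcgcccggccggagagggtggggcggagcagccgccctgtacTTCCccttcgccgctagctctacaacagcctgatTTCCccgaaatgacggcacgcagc
IRF1 upstream start, summit at 6.24 kb, chr5:132496909-132497109, minus strand: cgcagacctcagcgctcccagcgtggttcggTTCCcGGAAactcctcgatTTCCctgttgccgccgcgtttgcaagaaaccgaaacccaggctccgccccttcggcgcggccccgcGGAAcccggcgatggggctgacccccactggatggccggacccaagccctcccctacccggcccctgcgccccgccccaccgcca
IRF1 upstream start, summit at 7.11 kb, chr5:132497787-132497987, minus strand: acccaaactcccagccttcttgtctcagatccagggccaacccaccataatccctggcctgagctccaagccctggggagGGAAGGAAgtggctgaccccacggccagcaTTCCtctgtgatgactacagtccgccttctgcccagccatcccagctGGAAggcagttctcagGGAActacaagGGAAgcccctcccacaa
The promoter window holds a match to the GAS letters TTCNNNGAA, read as TTCCCCGAA on the gene's strand, 81 bp from the control summit and 90 bp from the IFN-γ summit. The window at 6.24 kb holds a match to the ISRE letters (GAAA, any 2 bases, GAAA) and a GAS match, 20 bp and 65 bp from the summit. The window at 7.11 kb holds 6 cores, with a pair in tandem, and 0 matches to the other motifs searched.

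The 6 IFN-γ peaks of *IRF1* without a control counterpart were modest. The highest, at 132510122 to 132510434 and 1577 bp upstream of the outermost start, had 26 fragments and a fold enrichment of 6.02. A peak in exon 10 (fold enrichment 3.35), 3 peaks in the gene body downstream of the MANE Select transcript (4.88, 3.70 and 4.03) and 1 peak 31.5 kb upstream of the MANE Select TSS (4.70) made up the rest. Another body peak, 45.0 kb downstream of the MANE Select TSS, was shared. It had 11 control and 23 IFN-γ fragments, fold enrichments of 5.35 and 3.60 and a ratio of 1.44 (0.672 to 3.26). The body peak at 132464417 to 132464637 had 2 ISRE matches and 1 match to the ETS-IRF composite letters (GGAA, any 2 bases, GAAA), the latter 10 bp from its summit. The upstream peak lay on a purine repeat with 18 cores, 12 of them in a single tandem run. A run of at least 4 units was found at 10.8% of all IFN-γ peaks, and of the IRF peaks in either list this was the only one with such a run.
IRF1 body, IFN-γ list only, chr5:132464377-132464577, minus strand: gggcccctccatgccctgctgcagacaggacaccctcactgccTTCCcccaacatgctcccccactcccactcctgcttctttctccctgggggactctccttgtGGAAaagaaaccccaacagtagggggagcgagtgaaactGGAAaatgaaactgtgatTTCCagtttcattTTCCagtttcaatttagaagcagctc
IRF1 31.5 kb upstream, IFN-γ list only, chr5:132522191-132522391, minus strand: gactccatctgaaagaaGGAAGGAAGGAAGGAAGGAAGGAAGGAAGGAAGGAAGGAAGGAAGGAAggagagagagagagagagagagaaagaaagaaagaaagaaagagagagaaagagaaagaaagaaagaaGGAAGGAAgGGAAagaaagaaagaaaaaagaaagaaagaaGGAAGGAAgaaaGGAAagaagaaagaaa
In the flank of *IRF1*, the strongest control peak was at the promoter of *RAD50*, a DNA repair gene, with 73 control and 68 IFN-γ fragments, or a ratio of 0.640 (0.453 to 0.903). It was also the strongest in the IFN-γ list, by p-value, with fold enrichments of 20.1 and 15.2.

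*IRF2* (ENSG00000168310, chr4:184385702-184474558, minus strand) encodes a factor that competes with IRF1 for the same sites. Its promoter had 2 peaks in each library. The peak in intron 1, 1398 bp downstream of the TSS, had 31 control and 25 IFN-γ fragments, with fold enrichments of 10.6 and 9.88. Its ratio was 0.554 (0.314 to 0.969), which is under 1, but with the scale set on promoter pairs it was 0.627 (0.355 to 1.10). The peak 196 bp upstream, between *IRF2* and the divergent transcript *IRF2-DT*, had 26 and 30 fragments, with fold enrichments of 10.1 and 10.6 and a ratio of 0.792 (0.453 to 1.39), which includes 1. Its window is the only IRF window in the control list with a match to each of the ISRE, GAS and composite letters, at 56 bp, 40 bp and 62 bp from the control summit, and the ISRE and composite matches overlap.
IRF2 promoter, chr4:184474646-184474846, minus strand: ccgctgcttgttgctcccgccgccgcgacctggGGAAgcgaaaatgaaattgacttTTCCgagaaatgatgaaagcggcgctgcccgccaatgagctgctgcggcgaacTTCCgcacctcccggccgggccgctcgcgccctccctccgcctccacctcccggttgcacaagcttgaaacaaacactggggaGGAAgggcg
IRF2 distal peak, chr4:184355250-184355450, minus strand: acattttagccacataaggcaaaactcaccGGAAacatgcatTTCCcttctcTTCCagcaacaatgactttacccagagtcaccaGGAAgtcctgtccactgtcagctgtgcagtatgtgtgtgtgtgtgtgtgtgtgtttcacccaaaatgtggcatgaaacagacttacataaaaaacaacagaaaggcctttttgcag
The second sequence is the strongest peak in the *IRF2* neighbourhood, 119 kb downstream of the TSS and 1373 bp from the start of the non-coding gene *LINC02363*. It had fold enrichments of 18.3 and 26.2 from 37 and 78 fragments. The interval of its ratio, 1.45 (0.967 to 2.20), includes 1, but lay above 1 with the scale set on promoter pairs. The window holds the FLI1 octamer (CAGGAAGT or CCGGAAGT on either strand) 14 bp from the control summit.

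*IRF9* (ENSG00000213928, chr14:24161234-24168043, plus strand) encodes the DNA-binding subunit of ISGF3, the complex that binds ISREs after type I interferon. Its promoter had a peak in the IFN-γ list alone, at 24161054 to 24161822, with the summit in intron 1 of the MANE Select transcript, 368 bp downstream of its TSS and 45 bp from an alternative start. The summit had 27 fragments over a background of 2.12, a fold enrichment of 8.96 and a rank in the top 33.6%. Scaled to the control depth it would have 18.5 fragments, and 7 were needed for a control call at that background. The peak also lies within 3 kb of a start of *RNF31*. Its window is given, without the annotated UTR, because it was the strongest promoter peak of an IRF gene in 1 list alone.
IRF9 promoter, IFN-γ list only, chr14:24161533-24161677, plus strand: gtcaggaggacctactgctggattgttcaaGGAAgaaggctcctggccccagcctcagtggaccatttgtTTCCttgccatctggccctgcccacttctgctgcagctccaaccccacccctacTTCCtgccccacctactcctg
The octamer, here on the other strand as acttcctg, lies 26 bp from the summit, and a GAS match 71 bp from it. The promoter of *IRF9* in RefSeq on GRCh38 has a further GAS match, TTCTGGGAA, inside the peak and 427 bp from the summit. The flank of *IRF9* held the strongest peak near any IRF gene in both lists by fold enrichment and p-value, at the promoter of the nuclear import gene *IPO4*. It had 76 control and 106 IFN-γ fragments, fold enrichments of 37.2 and 38.6 and a ratio of 0.958 (0.707 to 1.30), so it did not differ beyond counting error, and it held an octamer. The promoters of *DCAF11*, *EMC9*, *PSME2*, *TM9SF1* and *CHMP4A* had peaks in both libraries, with ratios from 0.701 to 1.63 whose intervals all include 1. With the scale set on promoter pairs, however, the interval at *DCAF11* lay above 1. The 1.63 is that of *EMC9*, where the paired summits lay 800 bp apart, and those at *PSME2* lay 267 bp apart. Promoter peaks at *PSME1* and *MDP1*, with 10 and 9 fragments, were in the control list alone.

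*IRF3* (ENSG00000126456, chr19:49659569-49665875, minus strand) and *IRF7* (ENSG00000185507, chr11:612553-615983, minus strand) encode the factors that are phosphorylated after viral nucleic acids are sensed and then induce type I interferons. *IRF3* had 1 promoter peak per library, with the summit in exon 2, 1161 bp downstream of the MANE Select TSS and 27 bp from an alternative start. It had 22 control and 26 IFN-γ fragments, fold enrichments of 10.4 and 6.45 and a ratio of 0.812 (0.442 to 1.50), and the divergent gene *BCL2L12* starts within 3 kb. The *IRF7* promoter peak had its control summit 4 bp upstream of the MANE Select TSS and its IFN-γ summit 37 bp downstream. It had 32 and 29 fragments, fold enrichments of 14.1 and 8.44 and a ratio of 0.622 (0.363 to 1.06). A second *IRF7* peak in intron 8, near an alternative start, had 10 and 13 fragments and a ratio of 0.893 (0.362 to 2.27). All 3 intervals include 1. The promoter windows of both genes are given for the positions of their cores.
IRF3 promoter, exon 2, chr19:49664674-49664796, minus strand: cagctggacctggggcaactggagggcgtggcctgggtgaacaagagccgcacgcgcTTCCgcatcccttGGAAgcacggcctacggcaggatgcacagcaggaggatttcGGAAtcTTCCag
IRF7 promoter, chr11:615984-616054, minus strand: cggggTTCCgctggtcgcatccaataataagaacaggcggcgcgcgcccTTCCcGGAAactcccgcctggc
The *IRF3* stretch holds 4 cores and the *IRF7* stretch 3, of which 2 form the GAS match TTCCCGGAA, 47 bp from the control summit. Around *IRF3* the neighbours moved in opposite directions. A peak between *RRAS* and *SCAF1*, 25.2 kb downstream of the *IRF3* TSS, had 36 control and 109 IFN-γ fragments, fold enrichments of 14.9 and 31.0 and a ratio of 2.08 (1.41 to 3.12), and it was the strongest IFN-γ peak in that flank. A peak in *PRR12*, with an octamer, had 13 and 39 fragments and a ratio of 2.06 (1.08 to 4.21). Its background was also higher with IFN-γ, 4.60 against 1.06, and its fold enrichments were close, 6.81 in the control and 7.14 with IFN-γ. The strongest control peak, at the promoter of the arginine methyltransferase gene *PRMT1*, had 47 and 36 fragments and a ratio of 0.526 (0.331 to 0.830). The ratio at the *RRAS* peak was 3.95 times that at *PRMT1* (2.14 to 7.31), again chosen after the values were seen. The control windows of these peaks held 63.7% and 73.6% GC, and an effect of GC content was not tested. Near *IRF7* the strongest flanking peaks by p-value were at *PHRF1*, with 33 and 45 fragments at summits 274 bp apart and a ratio of 0.937 (0.584 to 1.51). The peak at the non-coding gene *MIR210HG* had 34 fragments in each list, fold enrichments of 13.1 and 13.7 and a ratio of 0.687 (0.414 to 1.14).

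*IRF5* (ENSG00000128604, chr7:128937457-128950038, plus strand) encodes a factor activated downstream of MYD88. It was the gene with no shared peak. The IFN-γ list had a promoter peak at 128937778 to 128938091, with the summit in exon 1, 54 bp downstream of the MANE Select TSS. It was weak, with 13 fragments, a fold enrichment of 4.48 and a rank in the top 82.2%, and it fell out when the IFN-γ list was cut to the length of the control list. Scaled to the control depth it would have 8.93 fragments against 7 needed there, which is close to the limit. The control list had 2 peaks in the neighbouring gene *KCP*, of which the stronger, 46.9 kb upstream of *IRF5*, had 24 fragments and a fold enrichment of 10.2. Scaled to the IFN-γ depth this would be 34.9 fragments against 9 needed, and it was the control peak without a counterpart that lay farthest above that limit.

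*IRF4* (ENSG00000137265, chr6:391739-411443, plus strand) and *IRF8* (ENSG00000140968, chr16:85899116-85922606, plus strand) encode the haematopoietic members, which bind composite elements with the ETS protein PU.1 (the product of *SPI1*) in B cells and myeloid cells. *IRF4* had no promoter or body peak in either library. Its strongest peak lay 12.2 kb upstream and was shared, with 40 control and 44 IFN-γ fragments, fold enrichments of 12.3 and 6.75 and a ratio of 0.755 (0.481 to 1.19). The window holds an octamer 26 bp from the control summit and 6 cores in all. The other *IRF4* peaks, 3 in the IFN-γ list and 1 in the control list, had fold enrichments between 2.67 and 4.62.
IRF4 upstream peak, chr6:379431-379631, plus strand: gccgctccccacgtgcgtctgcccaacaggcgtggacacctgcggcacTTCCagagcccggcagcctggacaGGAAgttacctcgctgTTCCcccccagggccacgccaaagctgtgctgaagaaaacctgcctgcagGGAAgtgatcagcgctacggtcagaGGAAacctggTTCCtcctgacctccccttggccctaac

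*IRF8* had a single control peak, in intron 6 and 17.5 kb downstream of the MANE Select TSS. Transcripts that start within the gene place it in a promoter window, 2643 bp from the nearest start. It was shared, with 34 control and 57 IFN-γ fragments, fold enrichments of 11.6 and 8.70 and a ratio of 1.15 (0.740 to 1.82). The IFN-γ list added 6 peaks in the flanks. The strongest, at 85888834 to 85889267 and 10.2 kb upstream of the MANE Select TSS, had 85 fragments over a background of 6.02, a fold enrichment of 12.3 and a rank in the top 8.49% of the list. Of the 15451 IFN-γ peaks without a control counterpart, 72, or 0.466%, ranked in the top 10%, and this was the only IRF peak among them. Scaled to the control depth it would have 58.4 fragments against 13 needed for a control call. The other 5 had fold enrichments from 4.52 to 7.31 and 12 to 27 fragments.
IRF8 upstream peak, IFN-γ list only, chr16:85888906-85889106, plus strand: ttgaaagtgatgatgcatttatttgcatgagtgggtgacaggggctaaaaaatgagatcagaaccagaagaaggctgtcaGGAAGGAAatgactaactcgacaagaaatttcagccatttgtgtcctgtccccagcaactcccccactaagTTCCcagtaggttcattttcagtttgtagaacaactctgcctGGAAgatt
IRF8 36.1 kb upstream, IFN-γ list only, chr16:85862957-85863157, plus strand: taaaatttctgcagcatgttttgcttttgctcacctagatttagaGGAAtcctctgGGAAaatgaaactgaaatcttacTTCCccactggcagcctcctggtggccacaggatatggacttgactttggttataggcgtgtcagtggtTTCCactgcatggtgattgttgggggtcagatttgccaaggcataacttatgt
IRF8 intron 6, both lists, chr16:85916586-85916786, plus strand: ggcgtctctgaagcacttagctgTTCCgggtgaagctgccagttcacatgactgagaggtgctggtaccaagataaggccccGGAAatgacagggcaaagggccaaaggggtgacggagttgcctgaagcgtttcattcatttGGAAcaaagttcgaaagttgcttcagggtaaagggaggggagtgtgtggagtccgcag
The windows are given to compare the sites at *IRF8* that were present in both lists and in the IFN-γ list alone. The strongest upstream peak has a tandem pair of cores 13 to 20 bp from its summit and 0 matches to the octamer, ISRE, GAS or composite letters. The peak at 36.1 kb has overlapping ISRE matches 38 bp and 32 bp from its summit, and ISRE matches also occurred at the peaks 29.7 kb and 27.6 kb upstream. The match at 27.6 kb lies in a long pyrimidine-rich stretch. The intron 6 window has 3 single cores and 0 matches to the longer motifs. How these sites relate to transcription of *IRF8* was not measured.

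Over all 28 shared pairs of the 8 genes the median depth-scaled ratio was 0.947, between 0.424 and 2.08. The interval lay above 1 at 2 pairs and below 1 at 4, against 11.9% and 7.48% of all shared pairs. At the 8 own-promoter pairs the median was 0.802, with 0 pairs above 1 and 2 below (*IRF1* and *IRF2*), beside a median of 0.884 over all promoter pairs, of which 7.03% lay above and 11.7% below. At the 20 pairs in bodies and flanks it was 1.14, with 2 above and 2 below, while all distal pairs, which exclude promoters of other genes, had a median of 1.24, with 18.7% above and 1.63% below. With the scale set on promoter pairs the counts for the 28 pairs became 4 above and 2 below, and the *IRF1* promoter stayed below 1 at 0.480 (0.265 to 0.851). The pairs at *DCAF11* and near *LINC02363* then lay above 1, and those at *RAD50* and *IRF2* intron 1 came to include 1.

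**Figure D3:**
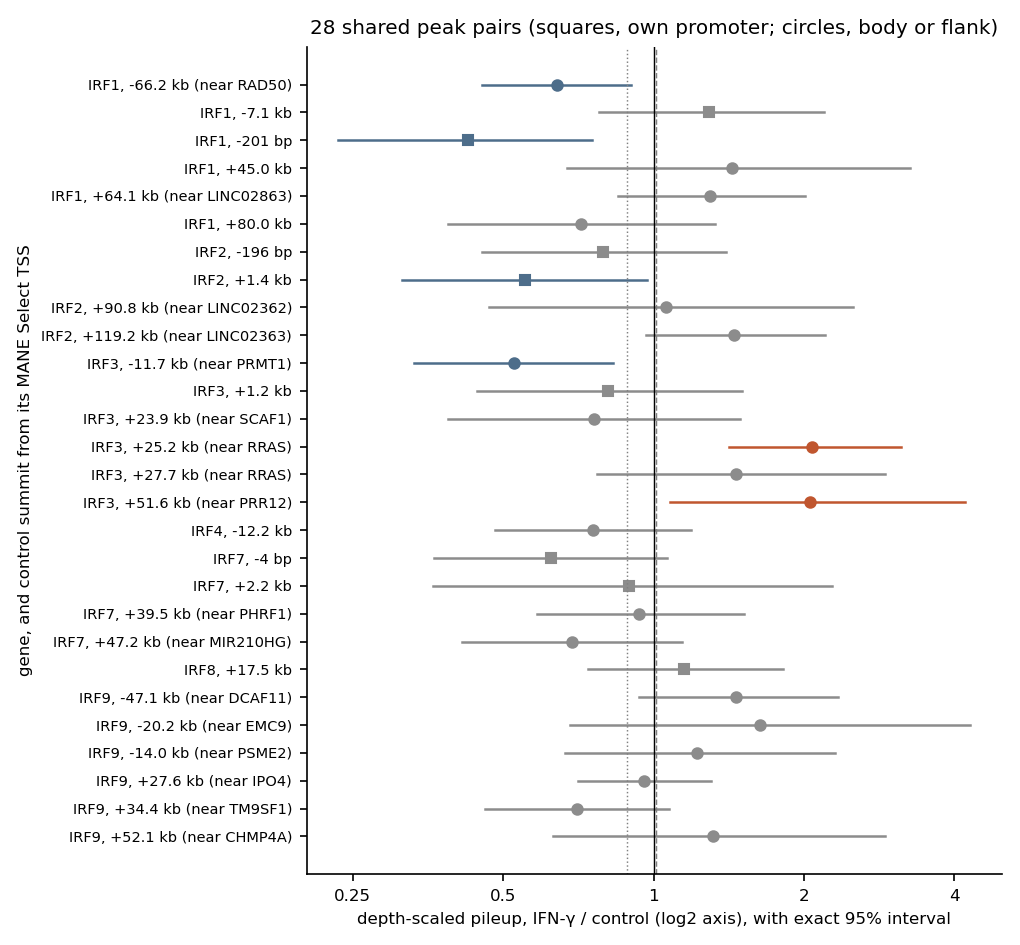
Depth-scaled pileup ratio of IFN-γ over control (horizontal axis, log2 scale) with exact 95% counting intervals for the 28 shared pairs, labelled by gene and by distance from its MANE Select TSS (vertical axis). Squares are own promoters and circles other peaks. The dashed line is the median of all pairs (1.01) and the dotted line that of promoter pairs (0.884), and the intervals in orange (2) and blue (4) exclude 1.

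Of the 19 IFN-γ peaks without a control counterpart, 15 were in the weaker part of the list, beyond its top 50%, and at 3 the scaled pileup was below what a control call needed. At 3 it was at least 2 times that number, namely the *IRF8* peaks 10.2 kb and 36.1 kb upstream and the *IRF9* promoter. All 7 control peaks without a counterpart were above the number needed in the IFN-γ library. Of these, 2 were at least 2 times that number, the stronger *KCP* peak near *IRF5* and a peak at the *RRAS* promoter near *IRF3* (18.9 against 9). The same shares over all peaks without a counterpart are not given, so these counts only describe the IRF peaks.

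**Figure D4:**
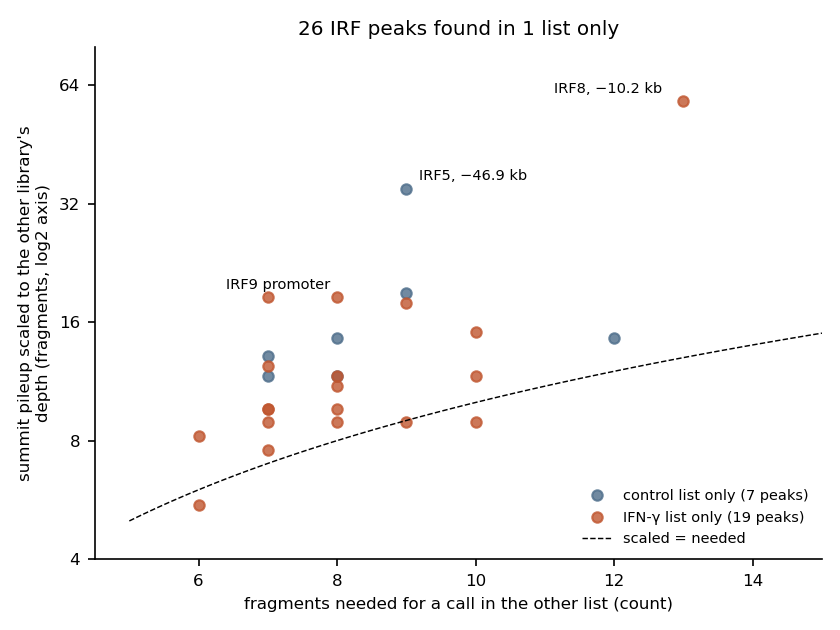
Summit pileup scaled to the depth of the other library (vertical axis, fragments, log2 scale) against the number of fragments needed for a call there at the same scaled background (horizontal axis), for the 7 control-only and 19 IFN-γ-only peaks. The dashed line marks equality, and the *IRF8* peak 10.2 kb upstream is the highest point at 58.4 fragments.

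The summit windows were searched on both strands for the same letters over the whole lists. A GGAA core was present at 94.4% of the control IRF peaks and 97.9% of the IFN-γ IRF peaks, beside 96.1% and 97.9% of all peaks. The octamer occurred at 16.7% (6.37% to 32.8%) of the control IRF peaks and 19.1% (9.15% to 33.3%) of the IFN-γ IRF peaks, against 12.8% and 13.5% of all peaks. ISRE letters were found at 11.1% (3.11% to 26.1%) and 14.9% (6.20% to 28.3%), against 4.07% and 7.96%, and GAS letters at 11.1% (3.11% to 26.1%) and 12.8% (4.83% to 25.7%), against 5.33% and 6.38%. The IFN-γ peaks with ISRE letters include those on the purine repeat near *IRF1* and the pyrimidine-rich stretch near *IRF8*. Composite letters were at 2.78% (0.0703% to 14.5%) and 8.51% (2.37% to 20.4%), against 4.02% and 6.18%, and AP-1 letters (TGANTCA) at 8.33% (1.75% to 22.5%) and 10.6% (3.55% to 23.1%), against 17.7% and 22.1%. Every one of these intervals holds the value over all peaks. A run of at least 4 GGAA units occurred at 0 of the 36 control IRF peaks, which allows a share of up to 8.33% by a limit of 3 counts and 9.74% by the exact interval, against 6.94% of all control peaks. Paired summits and overlapping windows share sequence, so the values for the 2 lists are not independent. In RefSeq, promoters (250 bases before to 50 after a start) were matched for 5 of the 8 genes, with 9 promoters. The GAS letters occurred in those of *IRF1* and *IRF9*, against 7.66% of all 35116 promoters, the composite letters in 1 of *IRF5*, against 2.82%, and the octamer in 0 of the 9, against 7.02%.

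Of 19 other genes in the pathway (receptors, kinases, adaptors, partners and cofactors of the IRFs), 18 had a promoter peak in both libraries and 0 in 1 library alone, beside the 61.9% and 59.7% of coding genes with a promoter peak in each list and the 3.7% and 5.9% with one in the IFN-γ or the control list alone. The remaining gene was *SPI1*, which had none. Their strongest promoter peaks had median fold enrichments of 11.1 with PBS (6.0 to 23.8) and 7.35 with IFN-γ (4.44 to 28.2). The highest promoter fold enrichment at *JAK1* was 14.4 with PBS and 28.2 with IFN-γ. At *STAT2*, the partner of IRF9 in ISGF3, it was 14.1 and 6.83. These values were taken in each list separately, so they need not be from the same site, and no depth-scaled ratio was made.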

How the data were processed

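Peaks came from Flag ChIP-seq of HK1 cells, 1 library per treatment. Chromatin was crosslinked for 10 min. Per the methods, the authors used Cutadapt 1.18 for trimming, Bowtie2 2.3.4.1 for alignment to GRCh38, Picard for duplicates and MACS2 2.1.2 for peaks. Whether the input was used in calling is not given in the sources used here. The deposited files give the fold enrichment, a ratio, of each summit, p-values and q-values that the authors wrote as −log10, and a score that was not used. The lists give no read totals.

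The whole pileup and background at each summit were solved from the deposited fold and −log10 p (largest relative error 6.21e-06) and scaled by the ratio of the lowest backgrounds. Peaks overlapping by at least 1 bp were shared, and overlapping peaks were paired by nearest summit (23491 pairs). Positions are 1-based, and all peaks lay within the chromosomes of the reference. The number of fragments needed in the other list was that at the same background, scaled, and the highest p-value of that list. Ratios have exact binomial intervals, and ratios between pairs exact conditional ones. Motifs were searched within 100 bp of summits.

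The text names all 8 genes, their own promoter and body peaks, the strongest flanking peaks and examples of the pathway list, of which 1 gene is not reported here. Further peaks, such as *PRR12* and the flanking peaks of *IRF4* and *IRF8*, were named after their values were seen. The members and lists were chosen with earlier results of these data known. Alternatives were a q-value under 0.01, lists of equal length and other promoter windows, flanks, overlaps, scales and motifs. Taking each gene as its MANE Select transcript and the other pairing at the *IRF1* upstream start were added after the data were seen. Of the steps, 5 were tested on simulated data and returned 100% of the known answers. Software was samtools 1.23.1 and Python 3.11.15 with pysam 0.24.0, matplotlib 3.10.9, pandas 2.3.3, scipy 1.17.1 and numpy 2.4.6.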

Additional observations from a re-analysis of the deposited data

How the results depend on the processing

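No paired analysis was possible because PBS and IFN-γ had a single ChIP library each, and no replicate could be left out. Of the summary values under the alternatives, 44 stayed close to the reported value, 12 moved and 0 reversed. A count was called close within a factor of 1.5, so the drop from 47 to 36 IFN-γ peaks is among the 44. Some of the 44 could not change. Cutting the IFN-γ list leaves the control counts and motif shares fixed, and a 1 kb promoter window cannot alter counts that include the flank. Further, 16 ratios at own promoters under the other scales moved by less than their counting interval, although that of *IRF2* intron 1 came to include 1. The number of IRF peaks, 36 in the control and 47 in the IFN-γ library, was 19 and 31 with 20 kb of flank, 67 and 81 with 100 kb, and 8 and 18 when the nearest TSS had to be that of the IRF gene. The outermost peak counted lay 47.8 kb from its gene and the first left out 50.3 kb, both near *IRF1*. With lists of equal length there were 36 IRF peaks in each library, so the excess of 47 over 36 was absent, and *IRF5* had no IFN-γ promoter peak, which left 6 genes with one. The share of control peaks with a counterpart fell to 63.9% with summits within 100 bp, and that of IFN-γ peaks rose to 77.8% with lists of equal length, an effect of the shorter list. With the GGAA core in place of the octamer the shares were 94.4% and 97.9%. With the scale from promoter pairs, 4 pairs lay above 1 and 2 below. At these depths the smallest calls rest on 6 control and 7 IFN-γ fragments, and the intervals leave out variation between replicates.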
